A study of Gallus gallus with 2 samples.

Results

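Histone deacetylases remove acetyl groups from lysines of histones and other proteins. HDAC11 is the only class IV member of the zinc-dependent enzymes, and it is among the smallest. In mouse and human it acts mainly on long-chain fatty acyl groups of lysines, and in mouse it is abundant in brain. Class I enzymes (HDAC2, HDAC3 and HDAC8 here) work mostly in the nucleus, the first 2 of these within corepressor complexes. Class IIa enzymes (HDAC4, HDAC7 and HDAC9) have little catalytic activity of their own, bind MEF2 transcription factors and leave the nucleus when kinases phosphorylate them and 14-3-3 proteins bind them. HDAC10, of class IIb, acts on acetylated polyamines.

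The family was defined by probe annotation: the array name had to start with HDAC or the description had to hold the words histone deacetylase. This gave 9 of the 42034 probes on the array, and all 9 entered the fit, for which a probe had to stand well above background in 1 or both channels of each array. HDAC11 was selected on its ratio between trained and dark-reared chicks, the lowest of the genes with a symbol. Its ratio is therefore a description without a test. The other 8 probes were taken by their names and were tested, though the family was chosen with earlier results of these data known.

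RNA came from whole brains of newly hatched Cobb chicks, either trained for 1 h in filial imprinting, the early learning by which a chick comes to follow a conspicuous object, or reared in the dark. Each condition had 16 chicks, pooled by sex into 4 pools of 8 chicks: trained male, trained female, dark-reared male and dark-reared female. Each sex had 1 array, with the trained pool in Cy3 and the dark-reared pool in Cy5. Learning cannot be told apart from exposure to light, since the chicks it was compared with stayed in the dark. The dyes were not swapped, so any dye bias of a probe enters both arrays with the same sign and cannot be told apart from training. Between 61.5% and 66.5% of probes were well above background in a channel and none was saturated. Precision is limited by having 2 arrays.

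The probes are placed here on galGal2, the build of the array design. That of HDAC11 is on chromosome 12, from 5780432 to 5780491. HDAC2 was measured on chromosome 3 from 63252923 to 63252982, HDAC3 on chromosome 13 from 7610265 to 7610437 and HDAC8 on chromosome 4 from 1736471 to 1736775. HDAC4 was measured on chromosome 7 from 6084928 to 6084987, and HDAC7 on an unplaced sequence from 40671189 to 40671248. LOC420601, described on the array as similar to HDAC9, lies on chromosome 2 from 28819325 to 28819384, and LOC426307, described as similar to HDAC10, on chromosome 1 from 17448780 to 17448839. TC203670, on chromosome 1 from 72570557 to 72570616, is described only by a partial match to a histone deacetylase-like protein. Of the 9 probes, 7 span 60 bases of the genome, while the HDAC8 and HDAC3 probes span 305 and 173 bases. RefSeq names were found for 6 probes, and LOC420601, LOC426307 and TC203670 kept their array names. HDAC1, HDAC5 and HDAC6, the exons or untranslated regions under the probes and the probe sequences were not analysed here.

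The HDAC11 transcript gave a lower signal in trained than in dark-reared brain in both sexes, by about 2 times. Its normalized log2 signal was 8.80 in the trained male pool and 9.12 in the trained female pool, against 9.76 in the dark-reared male pool and 10.19 in the dark-reared female pool. Both trained pools lay below both dark-reared pools, an order that choosing the gene on its low ratio favours, so it is no separate evidence. The log2 ratio of trained over dark-reared was -0.95 on the male and -1.08 on the female array, with a mean of -1.01 ± 0.087 (SD, n = 2 arrays), which is 0.495-fold. A lower signal from brain RNA cannot tell fewer expressing cells from less RNA per cell.

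The same order stood in the scanner's unnormalized numbers. The mean pixel signal of the HDAC11 spot was 282 in trained males and 374 in trained females, against 1275 in dark-reared males and 1650 in dark-reared females. The local background was 37 and 34 in the trained channels and 50.5 and 52.5 in the dark-reared ones, so all 4 signals stood far above it. Before normalization the log2 ratio of trained over dark-reared was -2.17 in males and -2.14 in females, whereas the medians over all kept probes were -1.02 and -0.86. The raw ratio of the spot thus lay below the median of kept probes before any dye correction. No background was subtracted, and the dim HDAC2 spot lay above these medians, at -0.77 in males and -0.71 in females. The medians are therefore not matched to the brightness of the HDAC11 spot. HDAC8, with a trained signal of 280 in males, had raw log2 ratios of -1.32 in males and -0.98 in females. The raw order alone says little. LOC420601, which rose after loess, also had raw log2 ratios of -0.63 in males and -0.79 in females. HDAC11 was chosen on a ratio from these same spots, so its raw values are no separate support.

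**Figure D1:**
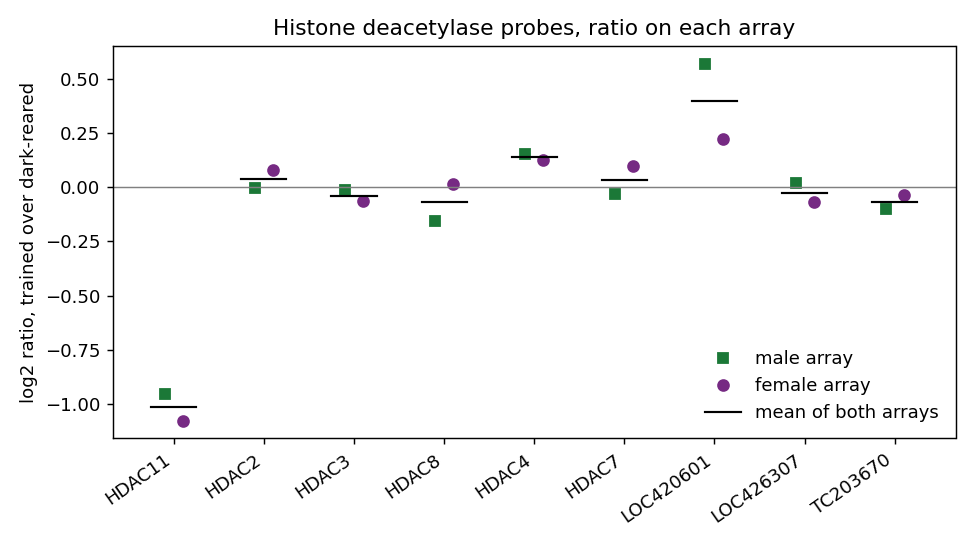
Log2 ratio of trained over dark-reared (vertical axis) for each histone deacetylase probe on the male array (squares) and the female array (circles), with bars at the mean of both. HDAC11 lies at -0.95 and -1.08, and the means of the other 8 probes lie between -0.07 and 0.39. With median centring in place of loess HDAC4, HDAC7 and LOC420601 lie below 0. In that setting the median of all kept probes is -0.34.

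Among all 27372 kept probes HDAC11 had the lowest mean ratio, and its rank from the bottom was 17 on the male and 5 on the female array alone. PEBP1 (-0.93) and PRIM2 (-0.89), an inhibitor of the Raf kinase and a subunit of primase, were the next genes with a symbol. The rank depended on the signal used. In the scanner software's processed signals, which the authors deposited, HDAC11 measured 1139 and 1494 in trained males and females, against 1774 and 2601 in dark-reared males and females. The ratios were then -0.64 and -0.80, with a mean of -0.72 ± 0.11 (SD, n = 2 arrays), and 452 of 27372 probes lay as low or lower. The authors' deposited table gives the log10 ratio the other way round, dark-reared over trained, as 0.192 with a software error of 0.0639 in males and 0.241 with an error of 0.0653 in females.

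**Figure D2:**
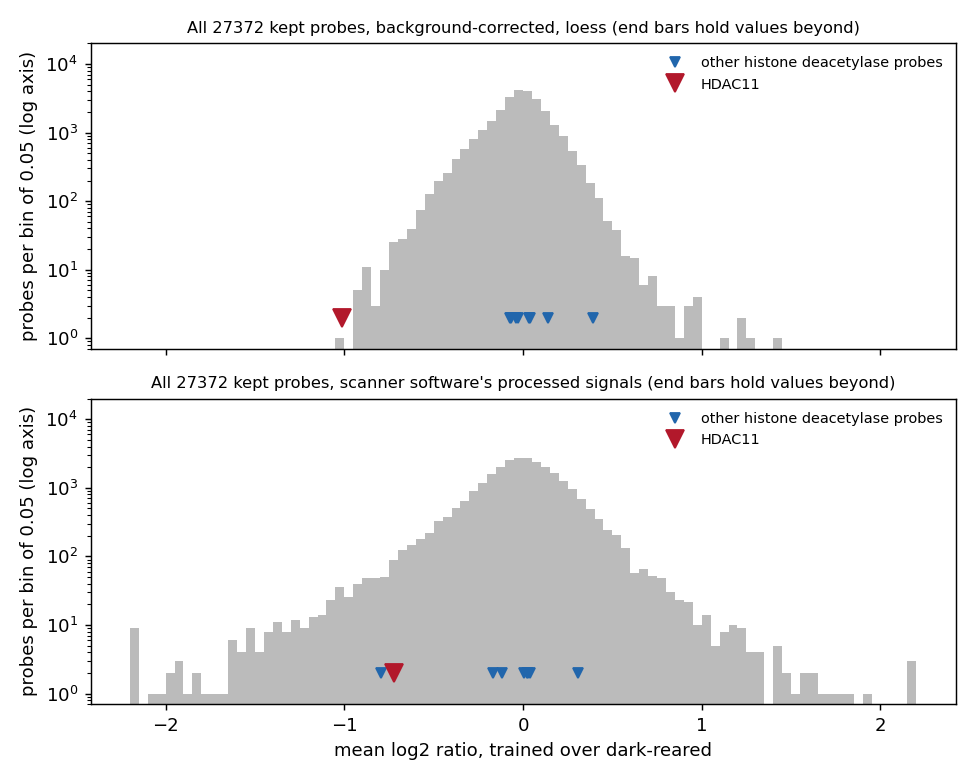
Number of kept probes (vertical log axis) by mean log2 ratio of trained over dark-reared (horizontal axis), with loess-normalized signals above and processed signals below. HDAC11 (large triangle) has the lowest mean of all 27372 probes in the upper panel and rank 452 in the lower one, where TC203670 lies at -0.79.

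HDAC11 had a single probe, so its ratio could not be set against a second one. Of 5 other probes within 100 kb on galGal2, all without a gene symbol, 1 entered the fit, the transcript TC203723, with ratios of -0.16 in males and 0.12 in females (limma adjusted p = 0.888). FBLN2, an extracellular matrix gene next to HDAC11 in RefSeq's table of assembly GRCg7b, had ratios of -0.073 in males and 0.16 in females (limma adjusted p = 0.725). FBLN2 was chosen after its values were seen. Both neighbours lay below 0 in males and above 0 in females, far from the HDAC11 ratio.

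The 8 other family members were centred on 0. Their median log2 ratio was 0.0024, against -0.012 over all kept probes, and their means ran from -0.071 to 0.39; with median centring the family median was -0.28, against -0.34 over all kept probes. In limma's test across all kept probes 1 of 8 rose, 0 fell and 7 did not pass, while 6.31% of all kept probes were called higher, 11.2% lower and 17.5% in either direction. These shares are 1726 and 3074 probes, whereas median centring gave 974 higher and 16499 lower, and in the family 0 higher and 5 lower. At an unadjusted p under 0.05 in limma's test, 2 of the 8 family members were higher and 0 lower. Of all 27372 kept probes, 9060 had such a p in either direction, so these 2 are no result about the family. A share of 12.5% past the test lies near the background. The signs agreed between the arrays for 4 probes, 2 above and 2 below 0, and differed for the other 4. The share of all kept probes with opposite signs was not counted. HDAC11 minus the family median was -1.02 log2 units, a distance not tested because the gene was chosen for it.

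**Figure D3:**
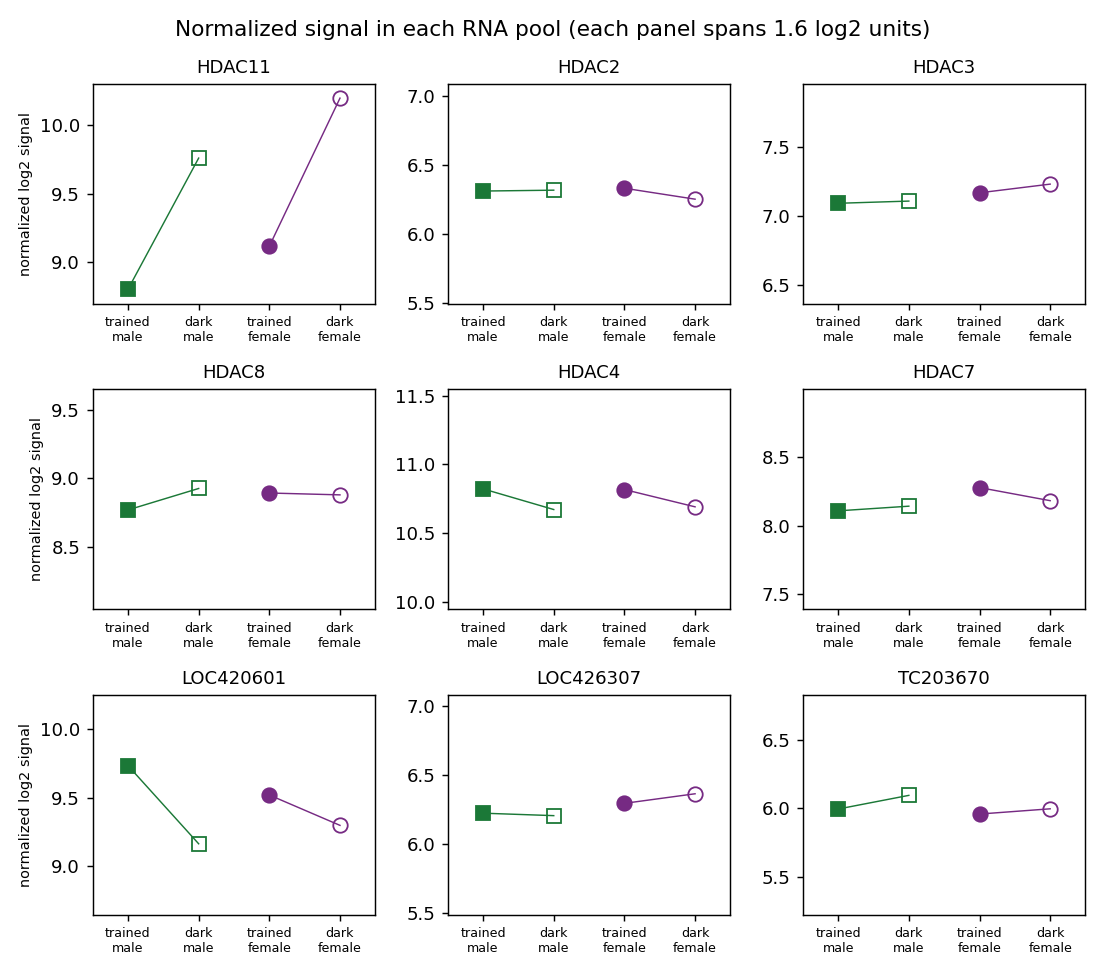
Normalized log2 signal (vertical axis) of each histone deacetylase probe in the trained (filled) and dark-reared (open) pools of males (squares) and females (circles). All panels have the same span, so slopes can be compared but heights cannot be compared between probes. The line is steep for HDAC11 in both sexes and for LOC420601 mainly in males.

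LOC420601, the transcript described as similar to the class IIa enzyme HDAC9, was the member that rose, though it lay below 0 with median centring. Its normalized log2 signal was 9.73 in trained males and 9.52 in trained females, against 9.16 in dark-reared males and 9.30 in dark-reared females. Both trained pools lay above both dark-reared pools, but the share of kept probes with this order was not counted, so it is not read as a result. The ratio was 0.57 in males and 0.22 in females, with a mean of 0.39 ± 0.25 (SD, n = 2 arrays), or 1.31-fold, and an adjusted p of 0.0327 in limma's test. A normexp offset of 16 ended the call (mean 0.44, limma adjusted p = 0.0710), as did the software's processed signals (mean 0.31, limma adjusted p = 0.348). With median centring the mean was -0.23 (limma adjusted p = 0.0229), which is 0.11 above that setting's median over kept probes. In the authors' deposited table the log10 ratio of dark-reared over trained was -0.153 in males (software p = 0.0149) and -0.0329 in females (software p = 0.593).

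The other class IIa members differed less. HDAC4, which represses MEF2 targets in muscle and neurons, had ratios of 0.15 in males and 0.13 in females (mean 0.14 ± 0.017, SD, n = 2 arrays). It did not pass limma's test (adjusted p = 0.131), and its mean was -0.59 with median centring and 0.039 in the software's processed values. Its normalized log2 signal was 10.82 in both trained pools, against 10.67 in dark-reared males and 10.69 in dark-reared females. How many kept probes have both trained pools above both dark-reared ones was not counted, so this order is not read as a result about HDAC4. HDAC7, known in mouse for its role in endothelium and thymocytes, had ratios of -0.034 in males and 0.095 in females (limma adjusted p = 0.762). Trained and dark-reared pools overlapped for HDAC7, at 8.11 and 8.28 in trained males and females and 8.14 and 8.18 in dark-reared males and females.

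Among the class I enzymes none passed limma's test with loess. With median centring HDAC8 (-0.65) and HDAC3 (-0.33) were called lower than 0, with limma adjusted p of 3.8e-11 and 0.00112. The median of all kept probes was -0.34 there, and HDAC8 lay 0.30 below it but HDAC3 0.016 above it. In that setting limma used the same pooled variance for every probe, so these p-values do not rest on each probe's own spread. HDAC2, a catalytic subunit of the NuRD, SIN3 and CoREST complexes, had ratios of -0.0063 in males and 0.080 in females (adjusted p = 0.696). Its trained signal was dim, with mean pixel signals of 49.6 and 49.8 over a background of 36.5 and 34.5 in males and females. For such dim spots the offset of 50 added to every corrected signal pulls a ratio towards 0. In the processed signals the ratios of HDAC2 were -0.080 in males and -0.26 in females. HDAC3, the catalytic subunit of the NCOR complex, had ratios of -0.016 and -0.063 in males and females (limma adjusted p = 0.658), and its mean was 0.0067 in the processed signals. HDAC8, which deacetylates cohesin, had ratios of -0.16 and 0.014 in males and females (limma adjusted p = 0.485). The pools overlapped between conditions for HDAC2, HDAC3 and HDAC8.

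The last members lay close to background. LOC426307, described as similar to HDAC10, had ratios of 0.018 in males and -0.070 in females (limma adjusted p = 0.788), and the software's signals gave 0.21 and -0.15. TC203670 was not well above background in the trained channel of either array, at normalized log2 means of 5.98 in trained and 6.05 in dark-reared pools. Its pools lay at 5.995 and 5.959 in trained males and females and 6.095 and 5.997 in dark-reared ones. Both trained values lay below both dark-reared ones, but the trained male and dark-reared female values were nearly equal. In such dim values this order is not read as a result. The dark-reared signal was 1.05-fold the trained one, a difference that did not pass (limma adjusted p = 0.433). It turned to 0.13, trained higher, with median centring. A bound was sought by taking for each array the higher of the trained value and the lowest signal that was well above background. It equalled the measured 1.05-fold and so set no minimum. In the processed signals TC203670 had a mean of -0.79, lower than that of HDAC11, with a software p of 0.205 in males and 0.109 in females in the authors' deposited table.

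The distance between HDAC11 and its family median was present under each processing tried, with a changing size. Each processing reused the spots on which HDAC11 was chosen, so this is no separate support. In the processed signals TC203670 (-0.79) lay below HDAC11 (-0.72). HDAC11 minus the family median was -1.06 with a normexp offset of 16, -0.99 with pixel medians in place of pixel means, -1.36 with median centring and -0.73 in the processed signals, all in log2 units. Pixel medians were chosen as a setting after the data had been seen. Median centring moved the median of all kept probes to -0.34, and HDAC11 minus that median was -1.30. In that setting 20 probes had a lower mean than HDAC11, which ranked 21 from the bottom.

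**Figure D4:**
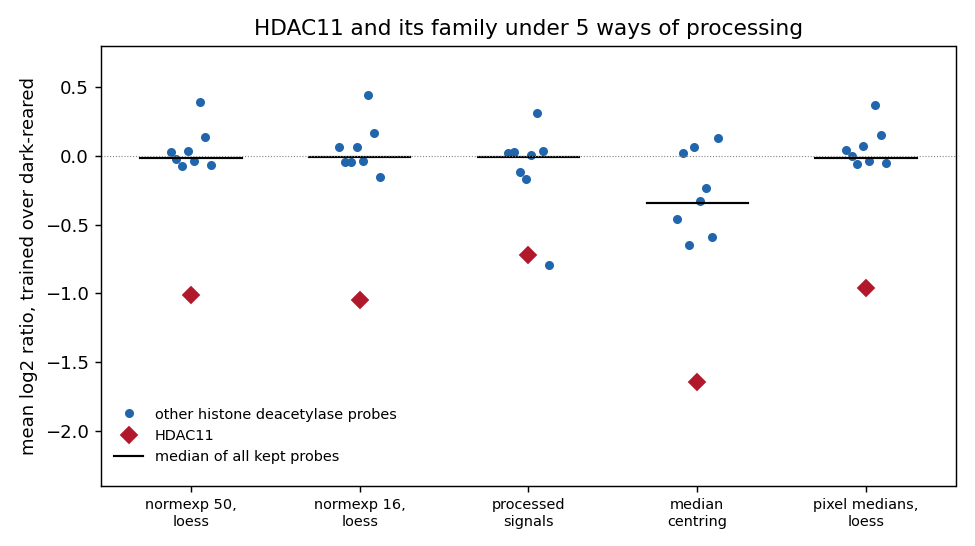
Mean log2 ratio of trained over dark-reared (vertical axis) of HDAC11 (diamonds) and the other 8 histone deacetylase probes (dots) under 5 ways of processing, with bars at the median of all kept probes. HDAC11 moves between -0.72 and -1.64, and with processed signals TC203670 at -0.79 lies below it.

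The sexes were then compared within each condition, a comparison that played no part in choosing HDAC11. In trained chicks the normalized log2 signal of HDAC11 was 8.80 in males and 9.12 in females, a difference of -0.31. In dark-reared chicks it was 9.76 in males and 10.19 in females, a difference of -0.44. HDAC11 was thus lower in the male pool under both conditions. Of the 25207 probes well above background in all 4 channels, 1.46% had as low or lower a difference in trained and 0.512% in dark-reared chicks. The other 8 members had differences of -0.17 to 0.21 in trained and -0.16 to 0.098 in dark-reared chicks. Each sex and condition was 1 pool, so there is no test, and the trained and dark-reared signals of a sex come from the same spot, so an uneven spot would move both.

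The training ratio of HDAC11 differed between the sexes by 0.12, male minus female, and 32.9% of kept probes differed between the arrays by at least as much. Choosing the lowest mean of both arrays favours a probe that is low on both. For LOC420601 the difference was 0.35, and 3.22% of kept probes differed by at least as much. The median size of the difference over kept probes was 0.084. With 1 array a sex these differences were not tested.

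Genes with the profile most like that of HDAC11 were sought among 7969 probes with a gene symbol, by Euclidean distance over the 4 pool values after centring each probe. The nearest was VSIG10, of the immunoglobulin superfamily, at a distance of 0.168, with ratios of -0.80 in males and -0.91 in females. CLK4, a kinase of splicing factors, followed at 0.186 with -0.90 and -0.82. BASP1, a growth cone protein, lay at 0.251 with ratios of -0.76 and -0.81. TCTEX1D2, a dynein light chain, lay at 0.263 with -0.73 and -0.81, and PEBP1 at 0.338 with -0.78 and -1.09. These values describe likeness over 4 pools on 2 arrays, which share the dye arrangement. In the processed signals the means were more than 1.5 times smaller, at -0.49 for VSIG10, -0.53 for CLK4, -0.41 for BASP1, -0.35 for TCTEX1D2 and -0.47 for PEBP1. A second probe of CLK4 was also low (-0.57), whereas the second probe of PEBP1 had a mean of 0.051. A second probe of BASP1 was not well above background, and VSIG10 and TCTEX1D2 had no other named probe.

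Markers of brain cells were examined beside HDAC11. All 8 neuronal markers on the array were measured, SNAP25 and SYT1 among them, as were 6 astrocyte or radial glial and 6 oligodendrocyte markers, while the microglial CX3CR1 and the photoreceptor gene GNAT1 were not. Of the oligodendrocyte markers 2 fell in limma's test, the myelin protein MBP (-0.62) and the enzyme ASPA (-0.44), 1 rose, CNP (0.26, but below 0 with median centring), and SOX10, OLIG2 and PDGFRA did not pass, at 0.22, 0.0081 and 0.059. The summed normalized signal of that list was 33103 in trained males and 40887 in trained females, against 50498 in dark-reared males and 50431 in dark-reared females. Such a sum is carried by its brightest probes: the median ratio of the 6 markers was 0.034 (-0.69 with median centring), and 4 of 6 lay above 0. With median centring the median of all kept probes was -0.34. For the neuronal list the sum was 88578 and 84436 in trained males and females, against 95432 and 96906 in dark-reared ones, and for the astrocyte list 47274 and 51704, against 56656 and 54707. The endothelial sum was 3921 and 4059 in trained males and females, against 4506 and 4544 in dark-reared ones. The blood sum was 15149 and 15520 in trained males and females, against 10502 and 12740 in dark-reared ones. Of the neuronal markers STMN2 (-0.39) and NEFL (-0.21) fell and 0 rose. Of the astrocyte markers 2 fell, GJA1 (-0.21) and GLUL (-0.27), and 1 rose, AQP4 (0.21, but below 0 with median centring). Endothelial VWF (-0.71), SOX18 (-0.67) and CLDN5 (-0.23) fell, 3 of 5 measured, with CLDN5 above 0 in the processed signals, where VWF was -0.40. The other kept probes of VWF had means of -0.06 and -0.08. CDH5 (-0.054) and PECAM1 (0.22) did not pass limma's test, and the other kept probes of PECAM1 had means of -0.02 and -0.35. Of the blood genes the globin HBBA rose (0.41, but below 0 with median centring) and EPB42 fell (-0.27). None of the 2 microglial, 2 retinal or pineal and 1 muscle markers measured passed. Of the 7413 genes with a symbol 8.81% rose and 12.7% fell, and the short marker lists were not tested against these shares. In the processed signals NEFL (-0.076), AQP4 (0.015), GJA1 (-0.12), GLUL (-0.021), ASPA (-0.090) and MBP (-0.24) shrank by more than 1.5 times. The part of these cell types in the HDAC11 ratio was not tested.

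Deacetylases act in complexes and against acetyltransferases, and 108 genes from 9 lists of such partners were examined. The lists were chosen with earlier results of these data known, so their counts are no separate support. Of the 108 genes, 65 were measured: 6 rose, 18 fell and 41 did not pass limma's test. That is 9.23% higher and 27.7% lower, beside 8.81% and 12.7% of the 7413 genes with a symbol, each taken by its brightest probe. The median was -0.020 over the listed genes and 0.0048 over all named genes. With a normexp offset of 16 only SIK1 and YWHAE still passed, in the processed signals 0 did, and with median centring 54 of 65 did. Calls changed over all 27372 kept probes too. They were 306 higher and 628 lower with that offset, 0 in the processed signals, and 974 higher and 16499 lower with median centring. In that last setting the median of all kept probes was -0.34, so 0 was not the level of the typical probe.

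Subunits of the deacetylase complexes that passed were lower. RBBP4, a histone chaperone shared by NuRD and SIN3, was the only one of 6 measured NuRD genes to pass, and it fell (-0.37 ± 0.032, SD, n = 2 arrays, limma adjusted p = 0.0122). In the SIN3 list 4 of 10 fell: ARID4A (-0.43), the histone mark readers ING1 (-0.37) and ING2 (-0.27), and SAP18 (-0.23). The demethylase KDM1A (-0.25) was the 1 of 7 CoREST genes that fell, and it lay above 0 in the processed signals. In the NCOR list 2 of 3 fell, the corepressor NCOR1 (-0.34), which lay above 0 in the processed signals, and TBL1XR1 (-0.27). No gene of these 4 lists rose in limma's test, while 8.81% of the 7413 genes with a symbol rose and 12.7% fell. Lists this short were not tested against these shares. The processed signals gave RBBP4, ING1, ING2, SAP18 and TBL1XR1 a mean more than 1.5 times smaller.

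Past limma's test were 1 of 4 sirtuins, 2 of 12 acetyltransferases and 5 of 7 acetyl-lysine readers. Over the 7413 genes with a symbol 8.81% rose and 12.7% fell, and these short lists were not tested against those shares. Of 4 measured sirtuins, the NAD-dependent deacetylases, the mitochondrial SIRT3 rose (0.24), though it lay below 0 with median centring. Of 12 acetyltransferases NCOA1 (-0.25) and CLOCK (-0.24) fell, and NCOA1 lay above 0 in the processed signals. CREBBP and EP300, the broad acetyltransferases of the nucleus, did not pass. Of 7 acetyl-lysine readers 4 fell, BRPF1 (-0.35), BRD1 (-0.26), BRD8 (-0.23) and BAZ2B (-0.22), and BAZ1A (0.26) rose, though it lay below 0 with median centring. In the processed signals SIRT3, CLOCK, BRPF1, BRD1 and BAZ2B were more than 1.5 times smaller. BRD1 had 2 further probes at -0.15 and 0.08, and BAZ1A had 1 at 0.01.

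**Figure D5:**
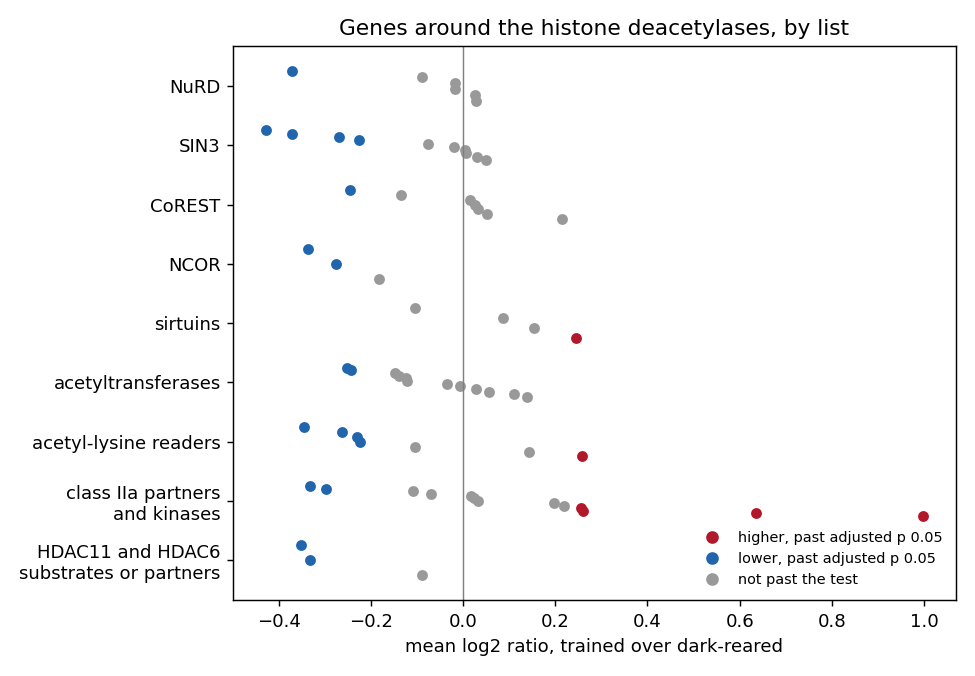
Mean log2 ratio of trained over dark-reared (horizontal axis) of each measured gene (dots) in the 9 lists, coloured by the result of limma's test at adjusted p 0.05. Of 65 genes 6 are higher and 18 lower. SIRT3, BAZ1A, MEF2D, CAMK2B and YWHAE lie below 0 with median centring, and KDM1A, NCOR1, NCOA1 and HSP90AB1 above 0 in processed signals. With median centring the median of all kept probes is -0.34, and BAZ1A and YWHAE lie above it.

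Partners and kinases of the class IIa enzymes went both ways. Of 13 measured genes 4 rose: the salt-inducible kinase SIK1 (1.00 ± 0.17, SD, n = 2 arrays), the 14-3-3 protein YWHAE (0.63), the transcription factor MEF2D (0.26) and the kinase CAMK2B (0.26). MEF2A (-0.33) and the 14-3-3 protein YWHAG (-0.30) fell. YWHAE, MEF2D and CAMK2B lay below 0 with median centring, and MEF2A was more than 1.5 times smaller in the processed signals. Among genes known in mammals as substrates or partners of HDAC6 or HDAC11, 2 of 3 measured fell: the chaperone HSP90AB1 (-0.35), which lay above 0 in the processed signals, and the actin-binding CTTN (-0.33), more than 1.5 times smaller there. GMNN, an inhibitor of replication licensing, had a mean of -0.090 and did not pass.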

How the data were processed

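Each array hybridised a trained pool (Cy3) and a dark-reared pool (Cy5), per the labels; the sample titles name the pools in the other order, and the dye labels set the direction here. The deposited scanner tables hold spot mean, median and background intensity without normalization, and a processed intensity that was detrended and dye-normalized, per the file headers. The deposited tables also hold a log10 ratio of red over green processed signals with its error, and a p-value from the software's error model for each spot, per the file headers. The deposited series table holds log2 ratios equal to green over red processed signals within 1e-08 for all 42034 probes. The scanner software was version 9.5.3.1 per the file headers and 8.5.1.1 per the submitters' processing notes. Other per-spot flags and pixel values in the deposited tables were used as given.

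Mean signals were background-corrected (normexp, offset 50) and loess-normalized in limma 3.58.1 (R 4.3.3), where control spots had weight 0. Probes with an outlier flag (25) were dropped, and 27372 of 42034 were kept because 1 or both channels of each array stood well above background. Limma's lmFit and eBayes tested the mean ratio of the arrays, adjusted by Benjamini-Hochberg across kept probes, with 1 residual and 5.06 prior degrees of freedom. The sexes are the only replicates, so p-values rest on the spread between 2 arrays, drawn mostly towards the spread pooled over all probes. They do not measure the spread between chicks. With median centring the prior degrees of freedom were infinite, so every probe was tested with the same pooled variance. Pool values came from loess and Aquantile. Symbols (9838 probes) came from accessions (5193), gene numbers (3450) or array symbols (1195) through RefSeq's GRCg7b table. Every family probe was named, of each list up to 4 genes past the test in each direction, the 5 genes most like HDAC11 and probes within 100 kb. Other list members and markers were named after their values were seen. The members and lists were chosen with earlier results of these data known. The fit was tested on simulated data. Alternatives were an offset of 16, processed signals, median centring, both channels above background, no filter, an intensity trend, the brightest probe per gene and pixel medians.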

Additional observations from a re-analysis of the deposited data

Results flagged for a closer look

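Of the 8 other histone deacetylase probes, 4 had ratios of opposite sign in the sexes. Listed genes that did not pass limma's test were not examined for this, and the share of all kept probes with opposite signs was not counted. Over kept probes the median size of the difference between the arrays was 0.084. The log2 ratio of trained over dark-reared was -0.034 in males and 0.095 in females for HDAC7, and -0.16 and 0.014 for HDAC8. It was -0.0063 in males and 0.080 in females for HDAC2, and 0.018 and -0.070 for LOC426307. Each sex had 1 array, so the difference was not tested, and none of these 4 passed limma's test over both arrays.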

How the results depend on the processing

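No paired analysis was possible because each sex had a single array, whose ratio already pairs its trained and dark-reared pools, and the groups share only 1 replicate number; leaving out an array leaves no test, so counts of calls have no such value. The HDAC11 ratio stayed below 0 in each alternative run, all of them on the spots it was chosen from. It is no separate support. It moved by more than its SD to -0.72 in the processed signals and to -1.64 with median centring. The family median was -0.28 with median centring, and on 1 array alone it lay between -0.011 and 0.047. The number of family probes called, 1 of 8 as reported, was 0 with a normexp offset of 16 and in the processed signals and 5, all lower, with median centring. Calls on the partner lists, 24 as reported, were 2, 0 and 54 in those settings. Across all kept probes limma called 1726 higher and 3074 lower as reported, 306 and 628 with offset 16, 0 in the processed signals (4878 at an unadjusted p under 0.05) and 974 and 16499 with median centring. With the processed signals LOC426307 (0.031), HDAC2 (-0.17), HDAC3 (0.0067), KDM1A (0.078), NCOR1 (0.017), NCOA1 (0.13) and HSP90AB1 (0.18) changed sign. With median centring HDAC7 (-0.46), LOC426307 (0.024), LOC420601 (-0.23), HDAC4 (-0.59), TC203670 (0.13), SIRT3 (-0.57), BAZ1A (-0.25), MEF2D (-0.75), CAMK2B (-0.48) and YWHAE (-0.20) did, and with pixel medians LOC426307 (0.00024) did. With median centring the median of all kept probes was itself -0.34, and LOC420601, BAZ1A and YWHAE lay above it. A sign against 0 in that setting is therefore not a direction relative to the typical probe. The cause of the sign changes was not tested. An intensity trend in eBayes ended the call of BAZ2B. Signal over background limits HDAC2, LOC426307 and TC203670 most.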
